A study of Mus musculus with 4 samples.

Results

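The Rora locus was examined in ATAC-seq peak lists from mouse T-helper 17 (Th17) cells. ATAC-seq uses a transposase that inserts adapters into accessible DNA, so each listed region is a stretch of open chromatin. The locus was taken as the GENCODE M21 body of Rora on mm10, chr9:68653786-69388246 on the + strand, plus 50 kb on each side. Every listed region that overlapped this window was a member, with no choice by its values. Merging the regions of the 4 replicates wherever they overlapped by at least 1 bp gave 85 member regions, of 101015 in the whole series on chromosomes 1 to 19, X and Y. The series has 1 group: primary Th17 cells of strain C57BL/6NJ in 4 biological replicates that carry the same donor identifier. No genotype, treatment or control group is labelled, and age and sex are given as unknown or not collected. The spread between replicates may therefore be partly technical. A library tag in the peak names pairs replicate 1 with replicate 2 (KS134) and replicate 3 with replicate 4 (KS136); its meaning is not stated. The names also hold the word ASTARR.insert, which no label explains, so the assay is called ATAC-seq on the labels' word alone.

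Rora encodes RORα, a nuclear receptor that binds DNA as a monomer at an AGGTCA core preceded by an A/T-rich stretch. In Th17 cells it takes part in the programme that leads to interleukin 17 secretion, and in other tissues it is known for its parts in the circadian clock, the cerebellum and lipid metabolism. The gene is long, and its isoforms use different first exons joined to shared exons for the DNA-binding and ligand-binding domains.

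The long protein-coding transcript Rora-201 has 11 exons, and the short protein-coding transcript Rora-202 has 10 and spans 90.1 kb. The start site (TSS) of Rora-202 lies 635.896 kb after that of Rora-201, inside intron 2 of the long form. Intron 1 of the long form is 542.1 kb and intron 2 is 152.0 kb. The sequences below were read from the RefSeq GRCm38.p6 assembly that mm10 corresponds to. The first is the 200 bases before the Rora-202 TSS, chr9:69289482-69289681, + strand, with CG dinucleotides in capitals. The others reach 50 bases to each side of the median summit of a shared intronic region, with matches to searched motif strings in capitals, on either strand. They are the strongest region by signal, at 412.3 kb (chr9:69065998-69066098), with a RUNX string; the region at 397.2 kb (chr9:69050892-69050992), with 2 AP-1 strings; the region at 594.7 kb (chr9:69248401-69248501), with an ETS and an AP-1 string; and the region at 652.1 kb (chr9:69305849-69305949), with a RUNX and a ROR string. The AP-1 string allows any central base, and the 2 at 397.2 kb have T and A there. Every intronic sequence printed holds a match, which is not typical of strong regions. Among the 10 strongest shared regions, those at 364.5, 380.7, 431.6, 448.8 and 502.8 kb had no match in the same window. They are not printed. All distances are from the Rora-201 TSS.
Rora-202 upstream: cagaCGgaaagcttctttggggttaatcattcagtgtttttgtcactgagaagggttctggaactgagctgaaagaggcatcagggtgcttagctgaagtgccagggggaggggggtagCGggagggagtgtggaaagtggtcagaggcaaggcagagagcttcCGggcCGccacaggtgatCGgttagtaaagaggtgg
412.3 kb: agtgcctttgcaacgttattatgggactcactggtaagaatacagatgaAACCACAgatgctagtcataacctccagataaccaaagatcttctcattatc
397.2 kb: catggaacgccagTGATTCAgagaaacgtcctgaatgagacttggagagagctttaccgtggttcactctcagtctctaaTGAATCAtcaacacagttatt
594.7 kb: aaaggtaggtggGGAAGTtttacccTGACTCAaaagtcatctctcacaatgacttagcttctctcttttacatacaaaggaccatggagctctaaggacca
652.1 kb: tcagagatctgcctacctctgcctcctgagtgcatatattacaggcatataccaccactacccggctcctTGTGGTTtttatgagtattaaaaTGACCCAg

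Open regions were numerous across Rora and most recurred. The window held 75, 71, 67 and 75 regions in replicates 1 to 4 (72 ± 3.83, SD, n = 4). Replicate 3 had the fewest, although its whole list, with 85293 regions, was the longest of the 4. Of the 85 merged regions, 56 were present in all 4 replicates and are called shared below. That is 65.9% (95% Wilson interval 55.3% to 75.1%, counting error only), beside 68.0% of all regions in the series, so the share at Rora was near the background. Another 15 regions were found in 1 replicate, 6 in 2 and 8 in 3. These were 17.6%, 7.06% and 9.41%, beside 14.9%, 8.66% and 8.42% of all regions in the series. Signal, the authors' enrichment value for a region, had a median over regions of 6.18 among shared regions and of 2.88 among those found in 1 replicate. The regions covered 6.34% ± 0.239 of the window's bases, beside 2.37% ± 0.077 of the genome.

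**Figure D1:**
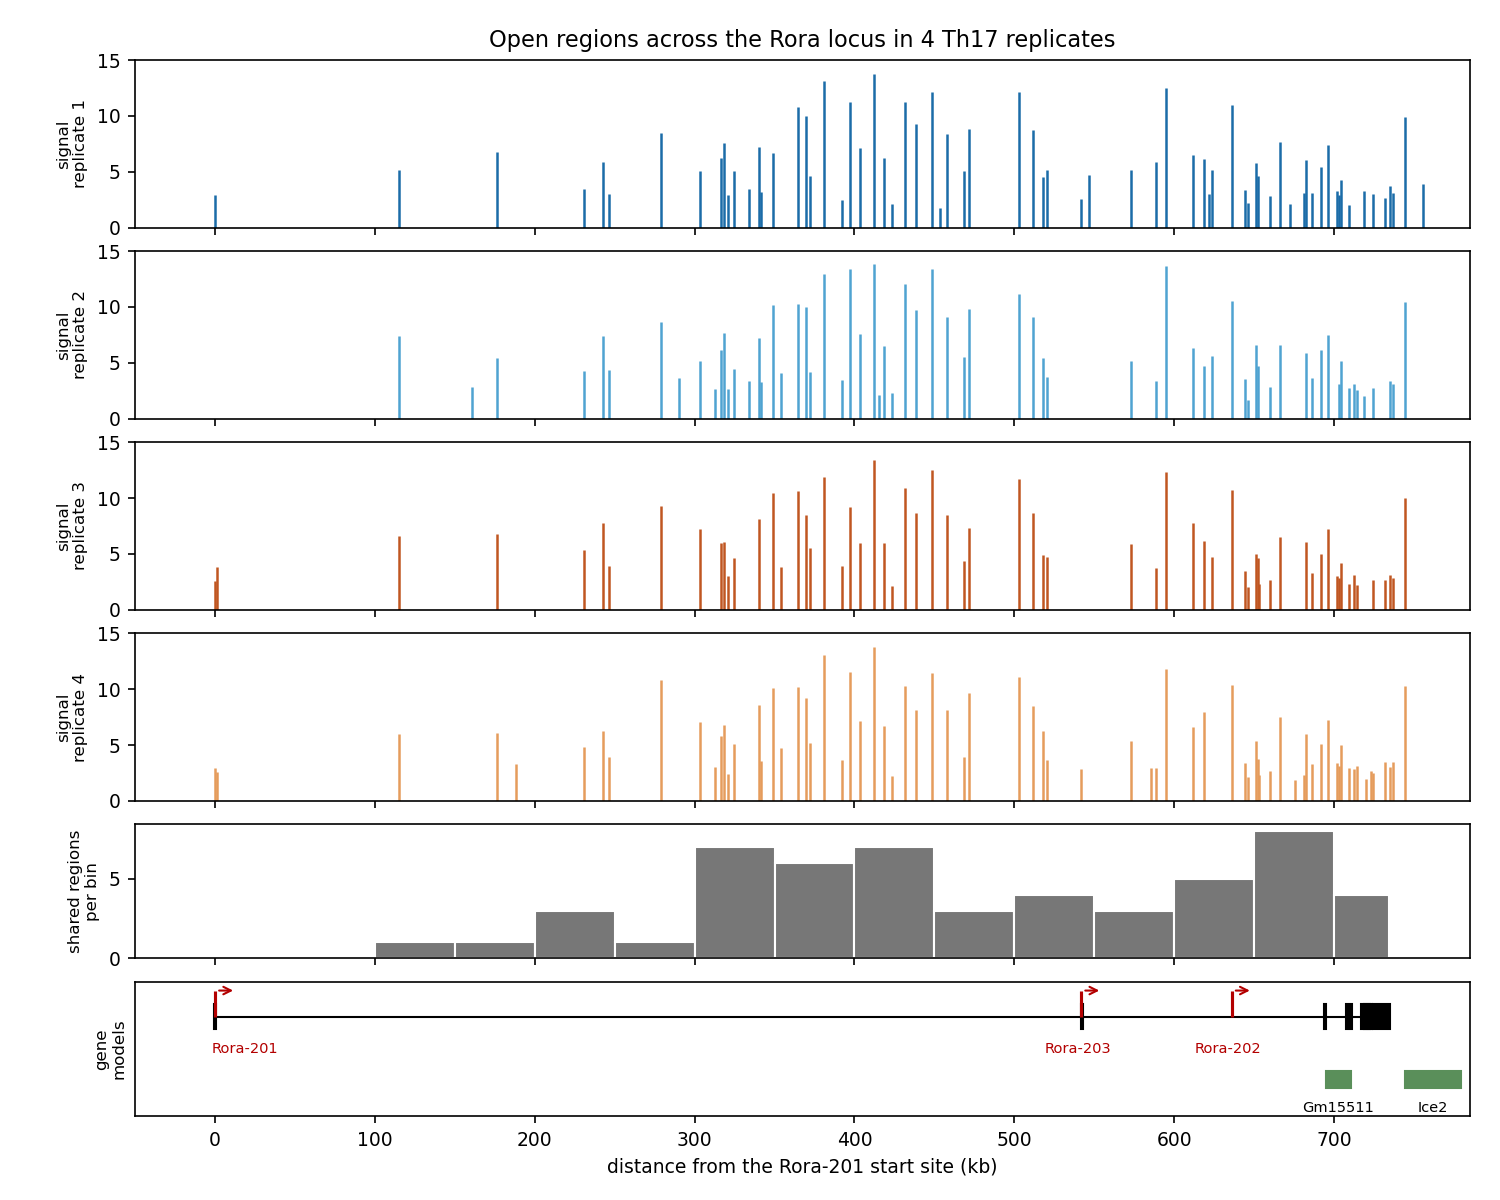
Deposited signal of each open region (vertical lines, 1 panel per replicate) against distance from the Rora-201 start site in kb, with the number of shared regions in each 50-kb bin of the gene body (bars) and the gene models; red arrows mark 3 Rora start sites, and exon boxes are widened slightly to be visible. The first 100 kb of the gene hold no shared region, and the tallest line in every replicate stands at 412.3 kb.

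The long form's own start site was weakly open, whereas the internal start site was open in every replicate. At the shared TSS of Rora-201 and Rora-204, the region chr9:68653287-68654011 had a signal of 2.88 in replicate 1, 2.55 in replicate 3 and 2.97 in replicate 4, and replicate 2 listed none. At the Rora-202 TSS, the region chr9:69289149-69291503 had signals of 10.99, 10.52, 10.71 and 10.35 in replicates 1 to 4 (10.6 ± 0.276). The values of the internal promoter and the first promoter did not overlap. Ranked among all shared regions of its own replicate, the first promoter lay at percentile 4.33 ± 1.33 (n = 3) and the internal promoter at 73.7 ± 2.60 (n = 4). Among open promoters of protein-coding genes the internal promoter lay at percentile 52.8 ± 2.76, near the middle. Its summits fell 163 bp after the GENCODE TSS in replicate 1 and 164 bp after it in the others. RefSeq starts transcript variant 2 of Rora at chr9:69289841, within a few bases of those summits.

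Both promoters are rich in CpG. The ratio of observed to expected CpG was 0.856 at the Rora-201 TSS and 0.718 at the Rora-202 TSS. The Rora-201 value lies in the richest of 5 equal groups of protein-coding start sites, of which 96.6% were open in all replicates, and the Rora-202 value in the next group, of which 92.0% were. In the 200 bases directly before each TSS, there were 21 CG dinucleotides at Rora-201 and 5 at Rora-202. None of the 14 searched strings was found in either stretch. RefSeq also places an antisense non-coding gene, Gm31325, across the Rora-201 TSS, and ATAC-seq has no strand, so openness there cannot be assigned to either gene.

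The other Rora start sites, all of transcripts with no full protein-coding annotation, were open in some replicates. The Rora-206 TSS, 105 bp after that of Rora-201, had a region within 1 kb in 3 replicates. The Rora-205 TSS had one in replicates 3 and 4, with signals of 3.83 and 2.55. The Rora-203 TSS, just before exon 2, had one in replicates 1 and 4, with signals of 2.59 and 2.83. So 1 of 5 Rora promoters was open in all 4 replicates, and without replicate 2 the count was 3. The rise came from the Rora-201 and Rora-206 promoters, counted apart although the region at the Rora-201 TSS lies within 1 kb of both.

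**Figure D2:**
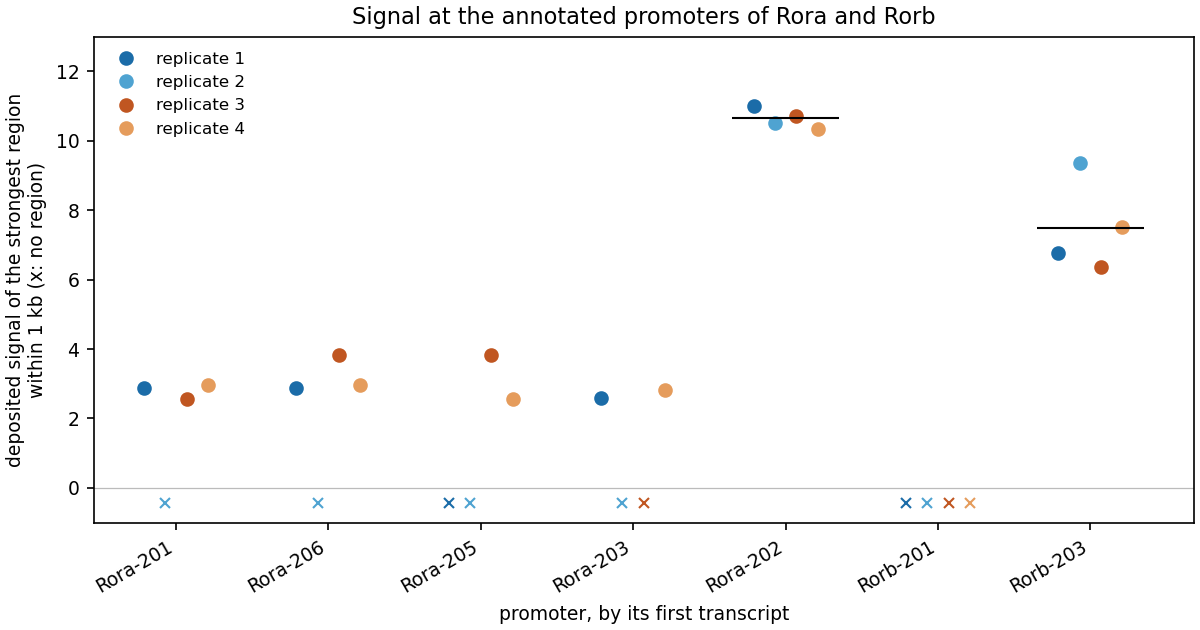
Deposited signal of the strongest region within 1 kb of each annotated promoter of Rora and Rorb, 1 point per replicate, with a black line at the mean where all 4 replicates had a region and a cross where a replicate had none. Rora-202 sits between 10.35 and 10.99, above every other point drawn.

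Rorb, a paralog known from brain and retina, had no region at its main annotated TSS, and its Rorb-203 TSS was open with signals of 6.77, 9.36, 6.38 and 7.50, below all 4 values at Rora-202. With the same 50-kb margins the Rorb window held 1 merged region.

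Within the gene, shared regions lay in the far part of intron 1 and in intron 2. Intron 1 held 33 shared regions of 44 (6.09 per 100 kb) and intron 2 held 15 of 23 (9.87 per 100 kb). Introns 3, 4 and 10 held 3, 1 and 1, the downstream margin 3 and the upstream margin 0. No shared region had its summit in an exon of Rora-201. The first shared region, chr9:68768596-68769208, begins 114.81 kb after the Rora-201 TSS, with signals of 5.19, 7.43, 6.63 and 5.95. RefSeq places the non-coding gene 9530091C08Rik around it. The widest stretch between neighbouring shared regions, 60603 bp, follows directly and ends at the region at 176.3 kb, whose signals were 6.77, 5.46, 6.76 and 6.09. The next widest stretches were 54148 bp and 52113 bp, the latter between 520.6 and 572.8 kb. Of 55 such stretches 39 were under 10 kb, and their median was 6296 bp, beside 9589 bp over all neighbouring shared regions of the series.

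By distance, chosen after the values were seen, the gene fell into sparse and dense stretches. The first 300 kb held 6 shared regions (2.00 per 100 kb), and 300 to 550 kb held 27 (10.8 per 100 kb). Sparse is meant relative to the rest of Rora. The median over protein-coding genes of at least 300 kb was 0.726 per 100 kb. The stretch of 550 to 650 kb, which contains the Rora-202 TSS, held 8. The stretch of 650 to 700 kb also held 8, in 50 kb. In the last part of the gene, from 700 kb on, 4 of 12 merged regions were shared, with a median signal percentile of 4.61.

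The 10 strongest shared regions, by mean signal percentile, were 8 intronic regions, the Rora-202 promoter and the promoter of the downstream neighbour Ice2. Ice2 encodes a subunit of the little elongation complex, which acts in small nuclear RNA transcription. Its promoter region, chr9:69397490-69399085, had signals of 9.87, 10.43, 9.99 and 10.26. The strongest was the intron 1 region chr9:69065618-69066592 at 412.3 kb, whose sequence with the RUNX string is printed above. Its signals were 13.77, 13.86, 13.42 and 13.78, and it ranked at percentile 89.0 ± 1.47. These 4 values are the highest in the window in every replicate, beside a highest signal of 37.9 ± 0.863 in the whole lists. Next came chr9:69033698-69034963 at 380.7 kb, with 13.08, 12.95, 11.87 and 13.02. The intron 2 region chr9:69247978-69248953 at 594.7 kb, with the ETS and AP-1 strings, had 12.5, 13.7, 12.4 and 11.8. The region chr9:69101637-69103243 at 448.8 kb had 12.1, 13.4, 12.5 and 11.4. These last 3 overlapped one another across replicates, so their order is not resolved. The intron 1 region with 2 AP-1 strings, chr9:69050531-69051127 at 397.2 kb, varied more, with 11.3, 13.4, 9.16 and 11.5. The other 3 intronic regions, at 364.5, 431.6 and 502.8 kb, had mean percentiles between 72.6 and 78.5.

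By signal, most Rora regions were weaker than the typical shared region. The median signal of the 56 shared regions was 6.07 ± 0.088, beside 7.30 ± 0.220 over all shared regions. Their median percentile was 37.12, 36.80, 40.21 and 39.97 in replicates 1 to 4 (38.5 ± 1.81), below the middle in each. Counting distal regions alone, those with no summit within 1 kb of a TSS, it was 38.2 ± 1.74 for 53 at Rora and 45.3 ± 0.194 for 51167 in the series. In each replicate 6 to 8 of the 56 reached percentile 75, and 17 to 20 lay under percentile 25. By construction each cut holds about 25% of all shared regions.

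Signal and the authors' −log10 q, a measure of how surely a region stands above background, ordered the regions differently. Ranked by −log10 q, the median percentile was 42.6 ± 3.35. By that rank 12 to 14 of the 56 reached percentile 75 in each replicate, and 15 to 18 lay under percentile 25. Each cut again holds about 25% of all shared regions by construction. The region at 316.5 kb had signals of 6.20, 6.11, 5.95 and 5.79 with −log10 q of 186, 181, 164 and 149. The region at 176.3 kb, of like signal, had −log10 q of 23.4, 14.9979, 26.2 and 19.6. The 4 values of one did not overlap those of the other. In 18 of 56 shared regions (32.1%) the −log10 q percentile exceeded the signal percentile by more than 15 points, beside 16.9% of all shared regions; the 15 points were chosen after the values were seen. Of these 18, 10 lay between 300 and 550 kb and 6 between 650 and 700 kb. The cause of the difference was not tested.

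**Figure D3:**
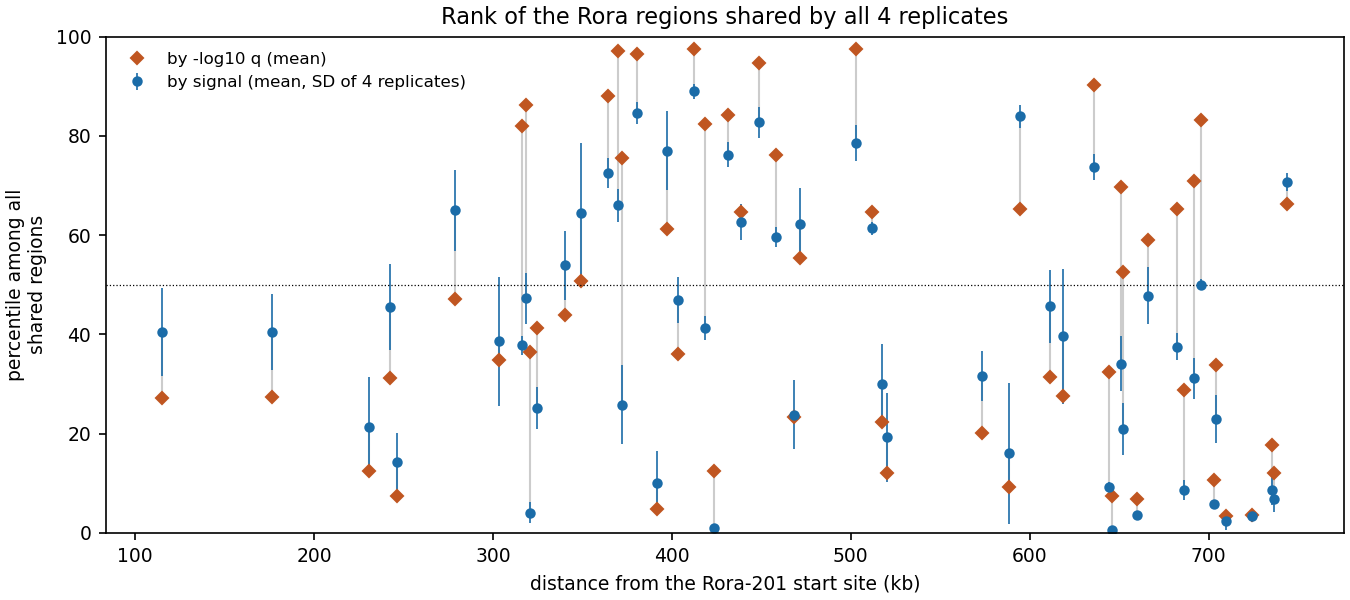
Percentile of each shared Rora region among all shared regions, by signal (circles, mean and SD of 4 replicates) and by −log10 q (diamonds, mean), against distance from the Rora-201 start site in kb; grey lines join the values of a region and the dotted line marks percentile 50. Between 650 and 700 kb, 6 of 8 diamonds stand more than 15 points above their circles.

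The 3 widest shared regions ranged from low to high signal. The Rora-202 promoter region spans 2355 bp. The intron 2 region chr9:69312621-69314787 spans 2167 bp with signals of 2.81, 2.87, 2.62 and 2.67. The intron 1 region chr9:69111266-69113256 spans 1991 bp with signals of 8.36, 9.09, 8.47 and 8.13. These are merged widths. In a single replicate the promoter region was 2137 to 2296 bp wide, and the median region of the window was 619.5 ± 58.9 bp.

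The strongest regions found in 1 replicate only were 255 to 262 bp wide. They lay at 546.5 kb in replicate 1 (signal 4.75), at 755.7 kb inside Ice2 in replicate 1 (3.89) and at 290.5 kb in replicate 2 (3.64). Of the 15 such regions, 6 were in replicate 1, 4 in replicate 2, 5 in replicate 4 and 0 in replicate 3. Over the series they numbered 3311, 3855, 4355 and 3542 in replicates 1 to 4, the most being in replicate 3.

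Replicates were alike over the locus. The Jaccard index of covered bases was 0.751 and 0.781 for pairs with the same library tag and 0.721 to 0.745 for the others. Spearman's rho of signal over the 56 shared regions was 0.937 to 0.968, as a description across regions that share their libraries. The median percentile was 36.96 with tag KS134 and 40.09 with KS136, a difference of −3.13. The exact two-sided permutation p was 0.333, the smallest that 2 against 2 allows.

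Rora was densely covered for a gene of its length. Its body held 53 shared regions of 81, or 7.22 per 100 kb. That ranked 25 of 567 protein-coding genes of at least 300 kb, whose median was 0.726 and of which 143 had none. Among the 113 genes at least as long as Rora it ranked 1. Bach2, a transcriptional repressor in lymphocytes, led with 16.7 per 100 kb, followed by Maml2, a Notch coactivator, with 11.2 and Foxp1, a forkhead factor of T-cell quiescence, with 11.05. The 5 genes nearest to Rora in density were Prkcb (7.23), Babam2 (7.23), Runx2 (7.21), Hecw2 (7.21) and Gm20388 (7.17), the last a very long model that encloses 71 protein-coding genes. The median signal percentile was 39.6 in the body of Rora, and 153 of the 181 long genes with 10 or more shared regions had at least that value. A low signal rank was not particular to Rora: of the 24 long genes denser than it, 7 had a lower median percentile, among them Bach2 (15.3), Maml2 (30.4) and Foxp1 (30.9).

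**Figure D4:**
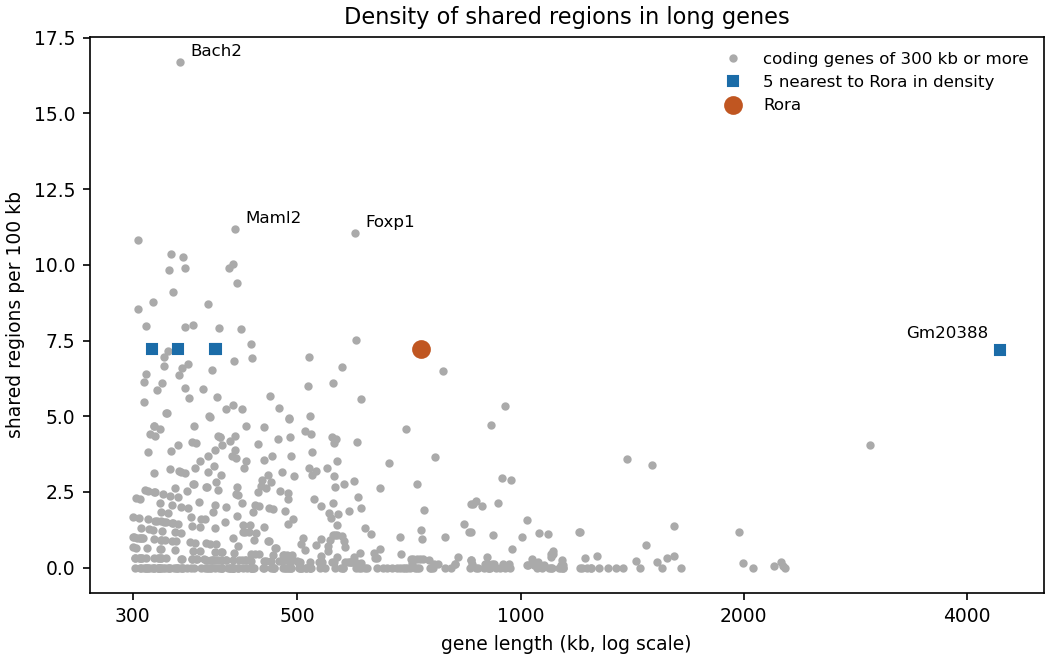
Shared regions per 100 kb of gene body against gene length in kb (log scale) for 567 protein-coding genes of 300 kb or more; Rora is the large orange point and the 5 genes nearest in density are blue squares. Rora, at 7.22, lies above every gene of greater length.

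Short strings for factors known in T cells were searched on both strands within 50 bp of each distal summit. The AP-1 string allows any central base, whereas the composite string below allows only C or G there, and the counts do not separate these forms. AP-1 (TGANTCA), named for the factor family of BATF and JUN proteins, was the most frequent. It was found at 11 of 70, 12 of 68, 10 of 62 and 14 of 70 Rora distal summits in replicates 1 to 4 (17.4% ± 1.94), beside 24.9% ± 0.237 of all distal summits. Each replicate was below the series value, but that value lay inside all 4 Wilson intervals, the narrowest reaching from 9.01% to 26.0%. So counting error alone left the difference unresolved in each replicate. The intervals treat neighbouring summits as independent, and the replicates largely list the same regions, so they are not separate checks. The difference was not tested further. In windows 200 bp to each side the share was 3.20% at Rora and 3.61% in the series. The shared distal regions with an AP-1 string at the summit of every replicate numbered 6 of 53, including those at 397.2 and 594.7 kb printed above. No series share is given for this count, so it cannot be read as high or low.

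ROR strings (TAGGTCA or TGGGTCA), which RORα itself can bind, were found at 4.14% ± 2.06 of Rora distal summits and 3.15% ± 0.056 of all. Only the intron 2 region chr9:69305534-69306324 at 652.1 kb had one at the summit in all 4 replicates, a count for which no series share is given. Its repeat content was 43.9%, beside medians of 13.9% for shared distal regions at Rora and 12.9% in the series. Its signals were 4.64, 4.75, 4.66 and 3.79, and a RUNX string (TGTGGTT) stands before the ROR string, here on the reverse strand, in the sequence printed above. Over their whole merged width, 14 of 53 shared distal regions held a ROR string (26.4%, beside 21.7% of all), at 0.300 matches per kb beside 0.289.

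Of the remaining strings, TCF/LEF (CTTTGAT or CTTTGAA) was found at 7.82% ± 2.34 of Rora distal summits and 4.75% of all. NF-kB was found at 3.73% ± 0.987 and 2.10%, RUNX at 5.96% ± 2.46 and 5.75%, and ETS (GGAAGT) at 8.51% and 9.57%. These rest on 2 to 7 summits per replicate. CTCF, the insulator protein's string, was at 1, 0, 1 and 0 Rora summits (0.760%, beside 3.49% of all). The series value lay inside the Wilson interval of every replicate, whose upper limits were 5.20% to 8.59%, so counting error alone left the difference unresolved. The composite string of AP-1 with IRF, bound by BATF with IRF4, and the STAT string (TTCCNGGAA) were at 0 Rora summits in every replicate, beside 0.946% and 0.483% of all. A count of 0 of 70 has an upper Wilson limit of 5.20%, so neither absence is distinguishable from the series value. These intervals also treat summits as independent. AP-1 and the composite overlap in sequence and were counted separately.

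**Figure D5:**
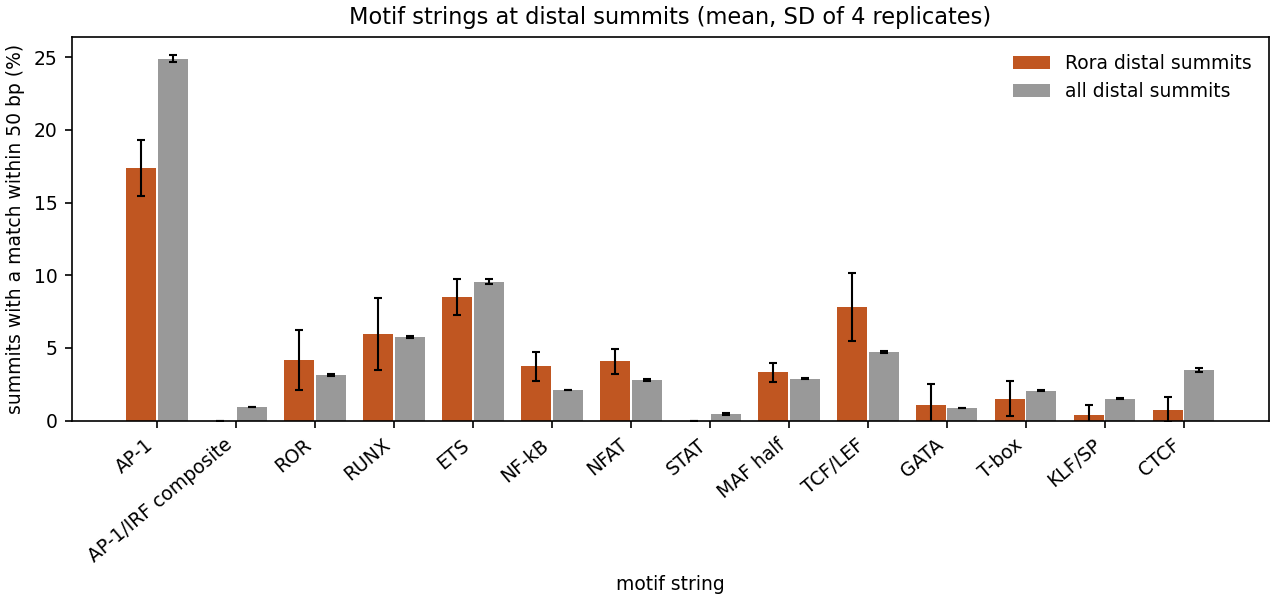
Percent of distal summits with a match to each motif string within 50 bp, at Rora (orange) and over all distal summits of the series (grey); bars are means and error bars SDs of 4 replicates. AP-1 is the tallest pair, at 17.4% and 24.9%, and the grey values for ROR, RUNX and ETS lie within the orange error bars.

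In base composition the Rora distal regions were close to the series. Median GC was 46.1% beside 46.2%, observed over expected CpG 0.203 beside 0.197, repeat content 13.9% beside 12.9%, and merged width 922 beside 797 bp.

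The genes listed as working with RORα each had an open promoter. Of a list of 26 genes (Rora and Rorb, REV-ERB competitors, clock genes, cofactors, Th17 genes and upstream factors), 26 had a promoter open in all 4 replicates, beside 64.1% of 21938 protein-coding genes. The list was chosen with earlier results of these data known, so the count of open promoters is a description and not a test. Rorb counted as open through its Rorb-203 TSS alone. Within 10 kb of the gene, Rora had 56 shared regions, the most in the list. Next were Runx1, a Runt-domain transcription factor, with 25 and the coactivator gene Ncoa2 with 22. The fewest were 1 at Rorb and 1 at Ppargc1a, the coactivator PGC-1α. The list's median was 9, beside 2 over all protein-coding genes, and longer genes have more room for regions. Only 5 protein-coding genes, Rora among them, had 56 or more.

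The cell label was checked on marker promoters. All 4 Th17 markers (Il17a, Il17f, Il23r and Ccr6) and 6 of 7 T-cell markers were open in all replicates, Trac being the exception. Over all protein-coding genes the share was 64.1%. No marker of another helper T-cell subset was included, so the check does not separate Th17 cells from those. Of B-cell markers 1 of 4 was open (Pax5), of neuron markers 1 of 4 (Snap25), and of myeloid and liver markers 0 of 4 and 0 of 3, with the liver gene Apoa1 open in some replicates only.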

How the data were processed

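ATAC-seq peak lists of 4 Th17 replicates were analysed, 1 list per replicate and not pooled, on mm10 per the labels. The deposited signal values, −log10 p and −log10 q values, and summit offsets were made by the authors; the deposited score was not used. For the aligner and the peak caller, names and versions were not given in the sources used here. Without read counts the depth is unknown, and precision is the replicate spread.

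Regions overlapping by at least 1 bp were merged. Percentiles were taken within each replicate among all shared regions. A promoter was open where a replicate's own region lay within 1 kb of a GENCODE M21 TSS, with TSSs within 100 bp joined. Summits over 1 kb from any TSS were distal. Library tags were compared by an exact permutation test. Python 3.11.15, NumPy 2.4.6 and SciPy 1.17.1 were used, and the merging and string search were tested on simulated data. Sequences came from RefSeq GRCm38.p6, and stretches overlapping annotated exons were not printed.

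The Rora window, the lists and the motifs were chosen with earlier results of these data known, and 1 gene of the lists is not reported here. Named regions were those at Rora start sites, the 10 strongest and 3 widest shared regions, the 3 strongest in 1 replicate, those with a ROR, CTCF or AP-1/IRF string at every summit, and those beside the widest stretch without a shared region; other regions were named after their values were seen. Alternatives were stricter lists, other overlap rules, other windows and leaving out each replicate.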

Additional observations from a re-analysis of the deposited data

Results flagged for a closer look

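Of 84 quantities with a value in each of the 4 replicates, 5 had 1 replicate far from the others. With continuous values, chance does this in about 1 in 20 groups. That rate does not hold for the first and last quantities below, where the other replicates tie. In replicate 1 the number of shared regions at or above percentile 75 of −log10 q was 12, beside 14 in each of the others. The intron 1 region chr9:69002498-69003208, at 349.2 kb, had a signal of 6.67 in replicate 1 and 10.1 to 10.4 in the others. The region at 380.7 kb had 11.87 in replicate 3 and 12.95 to 13.08 in the others. The region at 652.1 kb, which holds the ROR string, had 3.79 in replicate 4 and 4.64 to 4.75 in the others. The share of Rora distal summits with a KLF/SP string was 1.47% in replicate 2, from 1 summit, and 0 in the others.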

How the results depend on the processing

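Of 78 alternative values, 64 stayed near the reported one, which means within 1.5 times for counts and densities, within 1 SD of the replicates for other means, within the 95% Wilson interval for the shared percent, and equal for the widest stretch. The shared regions ranged from 42 to 70 within that bound. With the 50000 regions of highest signal in each replicate, the window held 33.75 regions per replicate, 28 shared regions and 3.68 shared regions per 100 kb of gene body, an AP-1 string stood at 20.5% of distal summits, and the widest stretch between shared regions was 81928 bp. With summits required within 100 bp of each other, 49.4% of the merged regions were shared. Ranked by −log10 q, the median percentile was 42.6. The AP-1 share was 7.47% within 25 bp and 27.4% within 100 bp, beside 12.9% and 34.4% of all distal summits. Leaving out 1 replicate gave 1 to 3 Rora promoters open in all, the 3 without replicate 2, and a widest stretch of 60603 to 114584 bp. That stretch was 65720 bp with a −log10 q of at least 10, 114584 bp with regions in at least 3 replicates and 113244 bp with at least 2. The stretch of 114584 bp begins at the region at the Rora-201 TSS. The stretch of 113244 bp begins at the region near the Rora-205 TSS. No paired analysis was possible because there is only 1 group.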
